A study of Mus musculus with 4 samples.

Results

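The genes described here move iron into red cell precursors, store it and sense it. They were 10 genes fixed by name, namely Tfrc, Tfr2, Steap3, Slc11a2, Slc25a37, Fth1, Ftl1, Slc40a1, Aco1 and Ireb2. All 10 were found among the 19938 genes with a probe set on Affymetrix Mouse Gene 1.0 ST arrays that is annotated to that gene alone. RNA came from proliferating cultures of MEL cells (2 arrays, A and B) and of ES-EP (2 arrays, A and B). MEL is a murine erythroleukemia line (clone DS19) that stably carries Gata-1 joined to the estrogen receptor (ER), grown in DMEM with fetal bovine serum, glutamine and puromycin. ES-EP are normal erythroid progenitors derived from embryonic stem cells, grown in StemPro34 with Epogen (erythropoietin), IGF-1, dexamethasone, murine SCF and β-mercaptoethanol. MEL is thus 1 clone, and cell type and medium cannot be told apart. The iron content of the media was not given in the sources used here.

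Erythroid precursors take up more iron than most other cells because each heme molecule needs an iron atom. Iron bound to transferrin enters through the transferrin receptor, is reduced in the endosome, crosses its membrane and is carried into mitochondria, while ferritin holds what is not used. A pair of iron regulatory proteins read the iron of the cytosol and bind hairpins called iron-responsive elements (IREs). When iron is scarce, their binding at a 5′ IRE blocks translation (ferritin, ferroportin) and their binding at 3′ IREs stabilizes the mRNA (transferrin receptor).

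The sequences just before annotated transcription starts are shown for the receptor, both ferritin chains and Steap3, because the first 3 were lower in MEL by similar amounts and Steap3 was higher. Each is the 160 bases before a start, 5′ to 3′ on the strand of the gene, from RefSeq (GRCm38.p6), with matches on either strand to 3 motifs in capitals. These were CACCC (the motif of Krüppel-like factors), AGATAA (the motif of GATA factors) and GAGGAA (the core read by PU.1). They lie at chr16:32608736-32608895 (plus strand, Tfrc), chr7:45459887-45460046 (minus, Ftl1), chr19:9982486-9982645 (plus, Fth1) and chr1:120271081-120271240 (minus, Steap3).
Tfrc: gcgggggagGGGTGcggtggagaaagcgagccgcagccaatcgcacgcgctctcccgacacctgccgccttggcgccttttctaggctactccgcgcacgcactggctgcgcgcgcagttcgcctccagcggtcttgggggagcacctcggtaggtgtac
Ftl1: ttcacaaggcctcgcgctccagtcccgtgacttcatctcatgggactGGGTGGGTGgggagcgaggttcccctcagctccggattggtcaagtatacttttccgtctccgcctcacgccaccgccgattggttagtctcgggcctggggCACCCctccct
Fth1: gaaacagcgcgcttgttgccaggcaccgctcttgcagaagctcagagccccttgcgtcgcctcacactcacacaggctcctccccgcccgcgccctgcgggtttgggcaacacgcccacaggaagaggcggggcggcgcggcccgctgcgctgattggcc
Steap3: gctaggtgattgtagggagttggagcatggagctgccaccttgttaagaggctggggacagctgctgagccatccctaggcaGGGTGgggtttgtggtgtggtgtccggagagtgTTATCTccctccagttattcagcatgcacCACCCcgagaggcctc

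The Krüppel-like motif matched 3 times in the Ftl1 stretch (2 of the matches overlap), 1 time in that of Tfrc and 2 times in that of Steap3, which also held the GATA motif. The Fth1 stretch held no match, and the window at the other Fth1 start held 1 match to CACCC. Tfrc and Fth1 have 2 annotated starts each, of which the 5′-most was shown for Tfrc and the 3′-most for Fth1, and Steap3 has 4, of which the 5′-most was shown. Windows from 250 bases before to 50 after a start were available for 7 of the 10 genes (14 windows). Steap3 supplies 4 of these windows, and windows of 1 gene can overlap, as those of Tfrc do. The same site can thus count in 2 windows. AGATAA lay in 1 of these 14 windows, that of Steap3, and in 11.2% of all 32851 windows. CACCC lay in 11 of 14 and in 57.5% of all, GAGGAA in 3 of 14 (Ireb2 and Steap3) and in 28.3% of all. CACGTG and TGACNNNGC lay in none of the 14, against 7.15% and 12.4% of all windows. CAGTGN, searched on the sense strand alone, lay in 6 of 14 (in 2 of them after the start) and in 34.6% of all. A match describes the letters of the window and not a bound site.

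Most of the 10 genes were lower in MEL. Limma called 8 of the 10 different at an adjusted p below 0.05, 7 lower and 1 higher in MEL (6 and 2 after each of 3 rescalings of the arrays), where 63.8% of all genes were called (43.2% lower and 20.5% higher). The median difference, MEL minus ES-EP, was -0.56 on the log2 scale, against -0.15 over all genes. Only Slc25a37 differed by 2-fold or more, in a table where 10.0% of genes were called at that size (4.27% lower and 5.72% higher in MEL). In all 10 genes the MEL and ES-EP arrays did not overlap, as in 81.8% of all genes. p-values measure the spread between duplicate cultures of these lines, most of it shared over all genes (prior degrees of freedom 8.2, residual 2). In bulk RNA fewer cells of a type and less RNA per cell cannot be told apart.

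The spread within each cell type was small, with SDs of at most 0.13 among the 10 genes. Over 35557 probe sets the MEL arrays had medians of 5.68 and 5.67, against 5.81 and 5.84 for the ES-EP arrays. All 10 genes were bright. Their array values ran from 8.51 to 13.23, and even the dimmest, Tfr2, had a higher mean than 81.6% of genes. The 95th percentile of 1027 olfactory receptor genes, which neither cell should use, was 5.19 in MEL and 5.56 in ES-EP and served as background. As to the labels, 10 of 10 measured erythroid markers lay above background in both cells, but 7 of them were called lower in MEL and 2 higher. Their median difference was -0.67, against -0.56 for the 10 iron genes, and their summed log2 signals were 95.6 to 96.3 in MEL, against 106.7 to 107.5 in ES-EP. The anion exchanger Slc4a1 was 44.3-fold lower in MEL, Hemgn 2.51-fold and the transcription factor Klf1 1.57-fold. The MEL signals of Slc4a1 (5.93 and 5.82) were near background, below the 99th percentile of the olfactory genes in MEL (6.06). Its fold is therefore poorly determined. The higher ones were Nfe2 (1.16-fold) and Gata1, which the MEL transgene also encodes (12.38 and 12.34 in MEL arrays, against 11.15 and 11.29 in ES-EP arrays). The part of this wider erythroid difference in the iron results was not tested. Markers of other cells lay mostly at or below background in both cell types, and 43.2% of all genes were called lower in MEL. Of 6 mast cell markers 5 were called lower in MEL (summed log2 signal 25.3 to 25.8 in MEL, 35.0 to 35.3 in ES-EP), but 4 of the 6 were at or below background in both, and most of the gap in the sum came from the IgE receptor chain Ms4a2, at 3.95 in MEL and 11.05 in ES-EP. Of 9 macrophage markers 4 were called lower in MEL (sums 43.5 to 43.6 in MEL, 45.4 to 45.8 in ES-EP), all 4 near or below background, and 6 of the 9, the defining Adgre1 included, were at or below it in both. Of 6 embryonic stem cell markers 4 were called lower in MEL (sums 27.0 to 27.5 in MEL, 28.8 to 29.1 in ES-EP), with 5 of the 6, among them Pou5f1, at or below background in both. Of 5 measured hepatocyte markers 1 was lower and 1 higher in MEL (sums 26.4 to 26.7 in MEL, 26.2 to 26.6 in ES-EP), with 3 at or below background in both. The part of such cells in the iron results was not tested.

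**Figure D1:**
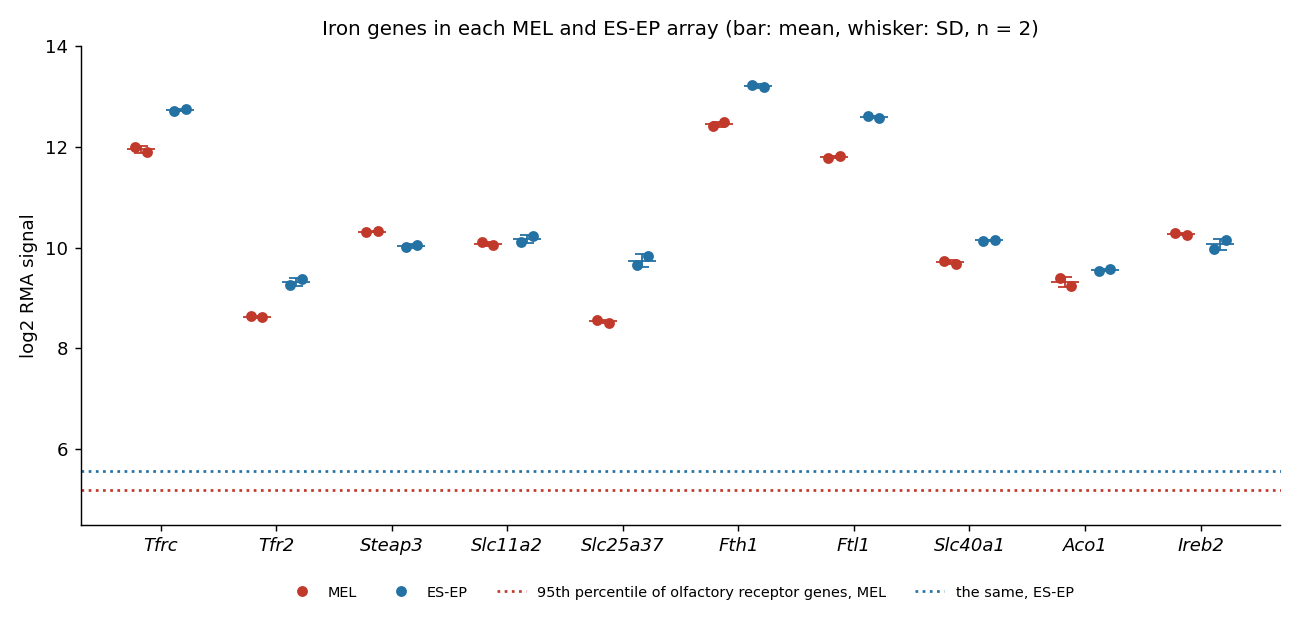
Log2 RMA signal (y) of the 10 iron genes (x) in each array, MEL in red left of ES-EP in blue; points are arrays, bars means, whiskers the SD (n = 2), and dotted lines the olfactory background of each cell type. Tfrc, Tfr2, Slc25a37, Fth1 and Ftl1 showed wide gaps with MEL below ES-EP, and the arrays of Slc11a2 were 0.009 apart at their nearest.

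Uptake begins with the transferrin receptors. Tfrc (CD71), the main entry route of transferrin iron in erythroid cells, gave 12.00 and 11.90 in MEL arrays, against 12.71 and 12.75 in ES-EP arrays. Both MEL arrays lay below both ES-EP arrays by at least 0.71. The difference was -0.78 ± 0.08 (SE), or 1.72-fold lower in MEL (limma, adjusted p = 1.54e-05). Tfr2, a second receptor that senses iron-loaded transferrin and in erythroid cells associates with the erythropoietin receptor, gave 8.64 and 8.62 in MEL, against 9.26 and 9.38 in ES-EP. It was 1.62-fold lower in MEL (-0.69 ± 0.08, adjusted p = 4.38e-05), a difference of nearly the same size as that of Tfrc.

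Inside the endosome the pattern changed. Steap3, the reductase that converts ferric to ferrous iron there, gave 10.31 and 10.32 in MEL, against 10.01 and 10.06 in ES-EP. After rescaling by quantiles, medians and cyclic loess Steap3 was called higher in MEL (limma, adjusted p = 0.00256, 0.000929 and 0.00325). With the deposited values it was the only gene of the 10 that was called higher in MEL, by 1.22-fold (0.28 ± 0.08, adjusted p = 0.0099). The call was narrow, since without MEL replicate A or B the adjusted p was 0.0514 or 0.0587, and against a 1.2-fold difference it was 0.744. Slc11a2 (DMT1), which carries ferrous iron out of the endosome, gave 10.10 and 10.05 in MEL, against 10.11 and 10.23 in ES-EP. Its difference of -0.09 ± 0.08 did not pass the test (adjusted p = 0.348) and its sign turned with median centring of the arrays (0.055, adjusted p = 0.565).

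The widest gap was at the mitochondrion. Slc25a37 (mitoferrin-1), the importer that supplies iron for heme in red cell precursors, gave 8.56 and 8.51 in MEL, against 9.64 and 9.83 in ES-EP. The arrays were separated by 1.08 at least. Slc25a37 was 2.31-fold lower in MEL (-1.21 ± 0.09, adjusted p = 1.06e-06), and 3.05% of all genes had a difference at or below this one. The genes with the most similar values over the 4 arrays, by Euclidean distance of the log2 values, were Gga2 (distance 0.14), Prdx4 (0.17) and Apmap (0.18). The distance sets signals of different probe sets beside each other, so it describes the array values and not equal RNA levels.

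Storage genes were lower in MEL by almost equal amounts. Fth1, the ferritin heavy chain that oxidizes iron for storage, gave 12.41 and 12.48 in MEL, against 13.23 and 13.18 in ES-EP. It was 1.70-fold lower in MEL (-0.76 ± 0.08, adjusted p = 1.71e-05). Ftl1, the light chain that helps form the iron core, gave 11.78 and 11.81 in MEL, against 12.61 and 12.57 in ES-EP, and was 1.73-fold lower in MEL (-0.79 ± 0.08, adjusted p = 1.07e-05). Ferritin genes have many near-identical copies in the genome, and the probes may read some of them. Another 4 probe sets name Ftl1 together with 2 microRNA genes, and they were also lower in MEL, by differences of -1.18 to -0.87, larger than that of the probe set used.

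The mRNA signal of the exporter was lower as well. Slc40a1 (ferroportin), the only known iron exporter of mammalian cells, gave 9.73 and 9.68 in MEL, against 10.14 and 10.15 in ES-EP. It was 1.35-fold lower in MEL (-0.43 ± 0.08, adjusted p = 0.000788). Against a 1.2-fold difference its adjusted p was 0.0801.

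With the deposited values the iron sensors were the least changed of the 10, along with Slc11a2 and Steap3. This order depended on scaling. After median centring Steap3 (0.43) and Ireb2 (0.36) differed by more than Slc40a1 (-0.29). Aco1 (IRP1), an aconitase that binds IREs once it loses its iron-sulfur cluster, gave 9.39 and 9.24 in MEL, against 9.54 and 9.58 in ES-EP. It was called 1.18-fold lower in MEL (-0.24 ± 0.09, adjusted p = 0.0292). That call was lost in 9 of 15 alternative settings. It ended when the arrays were rescaled by quantiles, medians or cyclic loess (adjusted p = 0.0939, 0.349 and 0.0851). Leaving out either ES-EP array, A (0.061) or B (0.097), or array B of MEL (0.199) ended it too. Ireb2 (IRP2), which is degraded when iron is plentiful, gave 10.29 and 10.25 in MEL, against 9.98 and 10.14 in ES-EP. Its difference of 0.21 ± 0.09 did not pass the test (adjusted p = 0.0572), but it did after each rescaling (0.0133, 0.00446 and 0.0171), with Ireb2 higher in MEL. Of the 15 alternative settings 7 gave such a call. Without ES-EP replicate A or B the difference was 0.13 or 0.29.

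**Figure D2:**
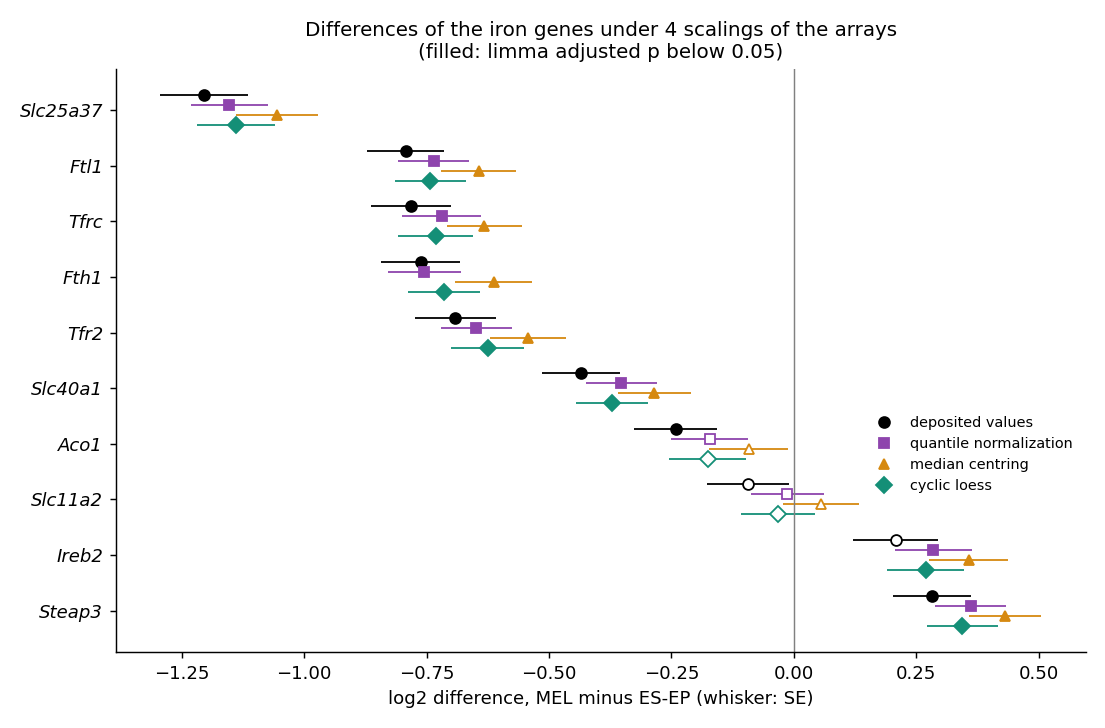
Log2 difference, MEL minus ES-EP, with its SE (x) for the 10 iron genes (y), from the deposited values and after 3 rescalings of the arrays; filled symbols passed the limma test. From Slc25a37 at -1.21 to Slc40a1 at -0.43 all symbols are filled and left of 0, while Aco1 and Ireb2 change between filled and open.

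The median difference of all genes was -0.15 as deposited, and -0.03, -0.01 and -0.00 after rescaling by quantiles, medians and cyclic loess. In each of them 6 of the 10 iron genes were called lower and 2 higher in MEL, and the median of the 10 was -0.50, -0.41 and -0.50. Quantile scaling called 56.8% of all genes (30.0% lower and 26.8% higher in MEL), median centring 57.2% (28.3% and 28.9%) and cyclic loess 55.9% (27.4% and 28.5%). Tfrc, Tfr2, Slc25a37, Fth1, Ftl1 and Slc40a1 were the 6 genes called lower in all 3. Against a 1.2-fold difference 5 of the 10 were called, all lower in MEL, where 32.1% of all genes were called (19.6% lower and 12.5% higher). After Holm's adjustment 4 of the 10 were called, all lower, with 14.2% of all genes called (6.79% lower and 7.44% higher). With the replicate letter as a block 8 of the 10 were called, against 63.7% of all genes, but that fit gave all 10 genes the same SE (0.10).

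Differences between genes of a pair within the same array do not move with the level of the array, so 6 pairs were compared in this way. The sizes of the probe signals of different genes are not comparable, and only the change between cell types is. The difference Slc25a37 minus Slc25a28 (mitoferrin-2, the widely used relative of the erythroid importer) was -0.66 and -0.64 in MEL, against 1.04 and 1.00 in ES-EP. The change of -1.67 between cell types, or 3.18-fold, was the widest of the 6. Slc25a28 itself gave 9.22 and 9.15 in MEL, against 8.61 and 8.83 in ES-EP, and was called 1.38-fold higher in MEL (adjusted p = 0.00156).

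Aco1 minus Ireb2 was -0.90 and -1.01 in MEL, against -0.44 and -0.57 in ES-EP, a change of -0.45 between cell types. Steap3 minus Slc11a2 was 0.21 and 0.27 in MEL, against -0.11 and -0.17 in ES-EP, a change of 0.38. Tfrc minus Slc40a1, receptor against exporter, changed by -0.35, so that Tfrc was the more reduced of them in MEL. Tfrc minus Tfr2 was 3.36 and 3.29 in MEL, against 3.46 and 3.37 in ES-EP, a change of -0.09. Fth1 minus Ftl1 was 0.63 and 0.67 in MEL, against 0.63 and 0.61 in ES-EP, a change of 0.03 whose sign turned with quantile normalization (-0.019). This small change holds for the Ftl1 probe set used, since the other 4 that name Ftl1 had larger differences (-1.18 to -0.87). Each pair gave an exact two-sided permutation p of 0.33, also after adjustment over the 6, which is the smallest that 2 against 2 arrays allow.

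**Figure D3:**
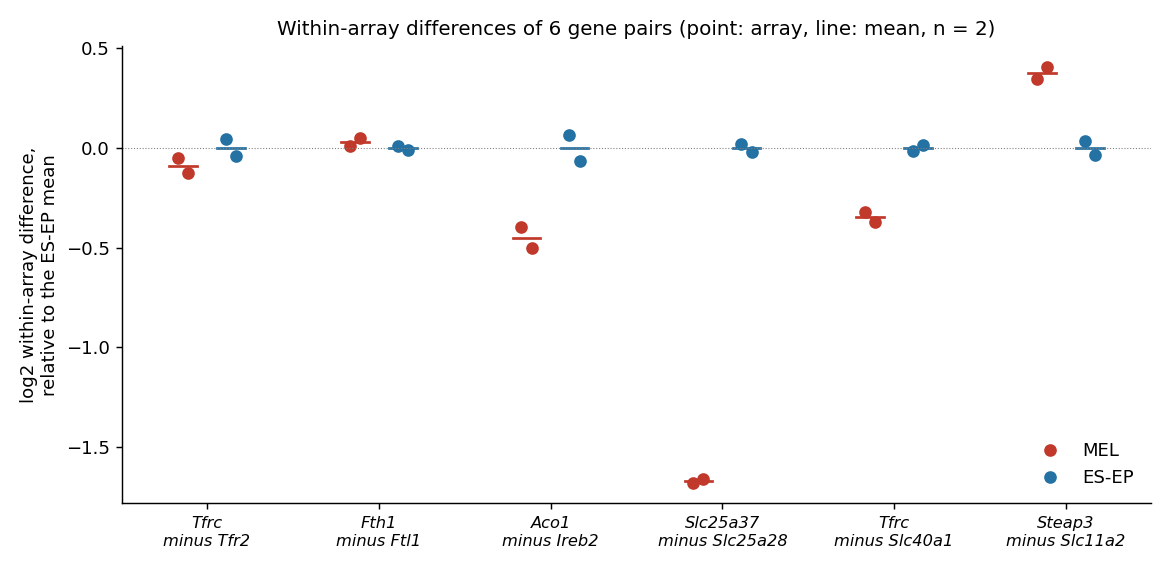
Log2 difference between the genes of each pair within an array (y, relative to the ES-EP mean of that pair) for 6 pairs (x), MEL in red left of ES-EP in blue; points are arrays and lines means of 2. Slc25a37 minus Slc25a28 shows the widest change (-1.67), and Fth1 minus Ftl1 differs by 0.03 with the Ftl1 probe set used.

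Beyond these 10 genes, 67 other genes of iron handling had been listed, of which 60 were measured. Of these 36 (60.0%) were called, 24 lower and 12 higher in MEL, close to the 63.8% of all genes, with a median of -0.13. The split depended on scaling, at 22 lower and 15 higher with quantile normalization, 18 and 18 with median centring and 21 and 16 with cyclic loess. The genes named next were taken by size, and those that complete a small count were chosen after their values were seen.

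Of 13 measured genes of the transferrin cycle and endocytosis, 4 were lower and none higher in MEL (median -0.15). Of all genes 43.2% were called lower and 20.5% higher. At or below background in both cells were 4 of the 13, among them Steap4, which was called lower. Vps35, a subunit of the retromer, which recycles membrane receptors from endosomes, was 1.84-fold lower (10.49 and 10.52 in MEL, 11.40 and 11.37 in ES-EP, adjusted p = 4.58e-06), and Dnm2, the dynamin that pinches off endocytic vesicles, 1.36-fold lower. Among 5 other iron carriers the zinc and iron importers Slc39a14 and Slc39a8 went opposite ways. Slc39a14 (ZIP14) was 2.40-fold higher in MEL (8.01 and 7.94 in MEL, 6.54 and 6.88 in ES-EP) and Slc39a8 (ZIP8) 2.33-fold lower (9.20 and 9.25 in MEL, 10.39 and 10.50 in ES-EP).

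Of 7 genes of iron chaperones and ferritin turnover, 4 were lower and 2 higher in MEL, where 43.2% and 20.5% of all genes were. Ncoa4, the receptor that delivers ferritin to lysosomes, was 1.64-fold lower (10.17 and 10.13 in MEL, 10.89 and 10.83 in ES-EP, adjusted p = 2.52e-05). The higher genes were the cytosolic iron chaperones Pcbp1 (1.43-fold) and Pcbp2 (1.51-fold), which deliver iron to ferritin. Of 7 genes of iron and oxygen sensing 3 were lower and 2 higher. Cul1, the scaffold of SCF ubiquitin ligases, was 2.05-fold lower (9.64 and 9.64 in MEL, 10.68 and 10.68 in ES-EP). After the 3 rescalings its log2 difference was -0.98 to -0.89, just short of 2-fold. The higher genes were Fbxl5, the SCF subunit that targets Ireb2 for degradation (1.33-fold), and Vhl, which targets hypoxia-inducible factors (1.41-fold).

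Mitochondrial iron use and iron-sulfur assembly had 8 lower and 4 higher genes of 16 (median -0.16), against 43.2% lower and 20.5% higher of all genes. With the deposited values 3 were lower by 2-fold or more. They were Abcb10, a mitochondrial transporter that stabilizes mitoferrin-1 (2.94-fold, 9.55 and 9.50 in MEL, 11.05 and 11.10 in ES-EP), Tmem14c, needed for porphyrin import (2.05-fold), and Glrx5, an iron-sulfur cluster carrier (2.04-fold). After the 3 rescalings the log2 differences of Tmem14c (-0.98 to -0.89) and Glrx5 (-0.98 to -0.88) fell just short of 2-fold. Of 9 genes of export and systemic control 2 were called lower in MEL. Erfe, the erythroid hormone that suppresses hepcidin, was 1.92-fold lower in MEL (6.93 and 6.69 in MEL, 7.63 and 7.87 in ES-EP, adjusted p = 3.3e-05), while Hamp, which encodes hepcidin, was called at signals below background in both cells (3.59 and 3.45 in MEL, 3.91 and 3.91 in ES-EP).

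Genes listed as having transcripts with IREs were also read as groups, which hold 5 of the 10 genes. The IREs were not checked in transcript sequences. The single value of a gene does not separate transcript forms with an IRE from forms without it. All 5 measured genes listed with a 5′ IRE were called lower in MEL, where 43.2% of all genes were. Of them 3 (Fth1, Ftl1 and Slc40a1) are among the 10 genes described above. The others were Alas2, also on the list of erythroid markers and the first enzyme of erythroid heme synthesis (8.69-fold, 8.78 and 8.73 in MEL, 11.84 and 11.90 in ES-EP), and Epas1, a hypoxia-inducible factor (1.47-fold). Epas1 was close to background, at 5.41 and 5.38 in MEL arrays, against 5.96 and 5.94 in ES-EP arrays. Of 4 genes listed with 3′ IREs Tfrc was lower, Slc11a2 was not called, and 2 were higher in MEL. These were the phosphatase gene Cdc14a (3.78-fold, 8.35 and 8.38 in MEL, 6.49 and 6.41 in ES-EP) and the kinase gene Cdc42bpa (1.24-fold, adjusted p = 0.0232). The Cdc42bpa call ended when either MEL array, A (0.134) or B (0.101), or array A of ES-EP (0.174) was left out. Array signals measure mRNA and not IRE binding.

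**Figure D4:**
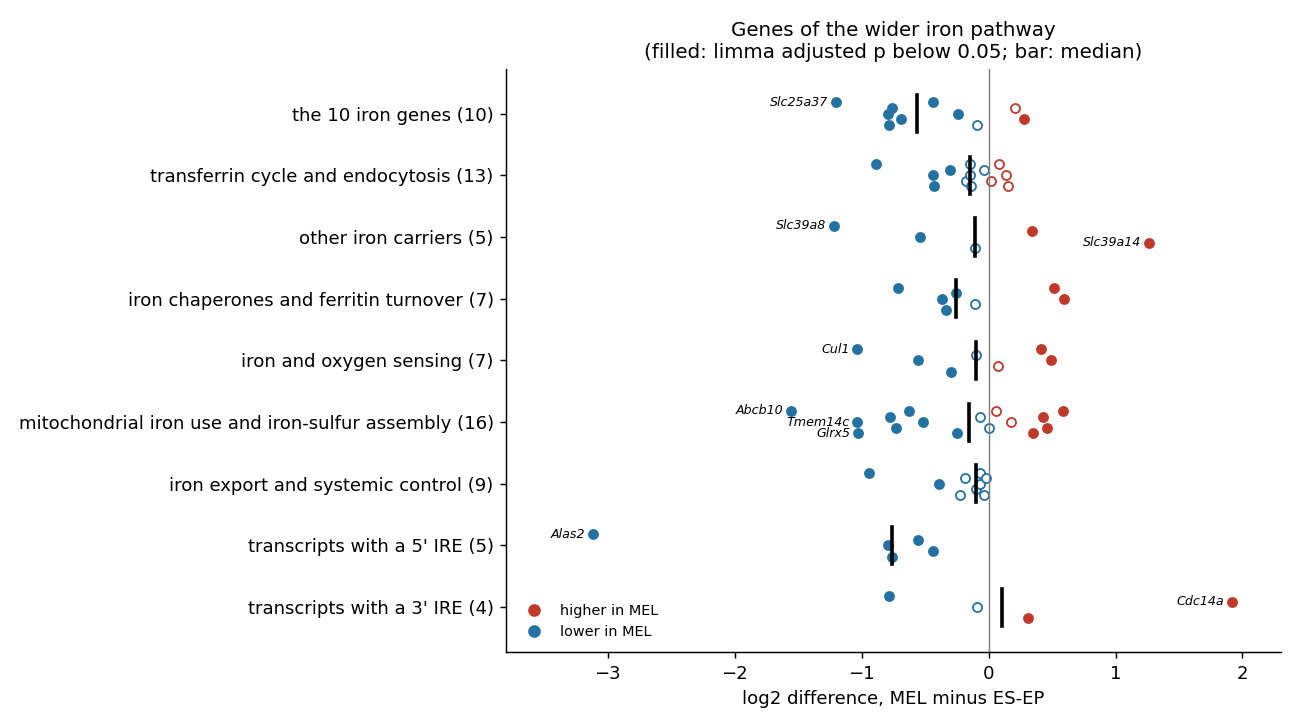
Log2 difference, MEL minus ES-EP (x), of each measured gene in the iron lists (y, number of genes in parentheses); filled points were called by limma, red lies above 0 and blue below, black bars are medians, and names mark called genes of 2-fold or more. The median of the 10 iron genes was -0.56, and Alas2 (-3.12) and Cdc14a (1.92) lay at the ends.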

How the data were processed

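RNA of 4 cultures was hybridised to Affymetrix Mouse Gene 1.0 ST arrays, 2 of MEL and 2 of ES-EP, which were grouped by title. The deposited values are log2 signals, 1 column per array, made by the authors with RMA in GeneSpring GX. The deposited arrays do not share 1 distribution, since their medians and maxima differ. No detection calls were used. The number of arrays limits the precision. Of 35557 probe sets, 21789 have 1 gene symbol, 1621 several and 12147 none here. Where a gene had several probe sets, that of highest mean signal stood for it (19938 genes). The 10 genes, the lists and the rules for named genes were chosen with earlier results of these data known. All 10 were named. Of every other list, called genes with a log2 difference of 1 or more were named (at most 4), or else the 2 largest called. For each of the 10 called at that size, the 3 genes nearest over the 4 arrays were named.

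The difference MEL minus ES-EP was fitted with lmFit and eBayes of limma 3.58.1 in R 4.3.3 (residual degrees of freedom 2, prior 8.2). Tests were two-sided, with Benjamini-Hochberg adjustment across the 19938 genes and a threshold of 0.05. Rescalings were made over all probe sets. On simulated data the steps recovered 80.6% of 67 genes changed by 0.5 on the log2 scale and 100% of 67 changed by 1. They called 10 of 19738 unchanged genes. The simulation changed few genes and gave the arrays no shift in level, whereas 63.8% of genes were called in the deposited values. Its rates therefore check the steps and do not give the error rate of the calls made here. Alternatives were 3 rescalings, 2 filters on low signal, 2 other uses of probe sets, a replicate block, another variance model, Holm's adjustment, testing against 1.2-fold, and each replicate left out in turn. Figures were drawn with matplotlib 3.10.9 in Python 3.11.15.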

Additional observations from a re-analysis of the deposited data

How the results depend on the processing

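Slc25a37, Tfrc, Fth1 and Ftl1 kept their direction and call in all 15 alternatives. Tfr2 lost its call only with Holm's adjustment (adjusted p = 0.121). Of the 10 iron genes 4 were called with Holm's adjustment and 5 against a 1.2-fold difference, all lower in MEL. Of the 60 other iron genes 10 and 21 were called in these tests, and of all genes 2837 and 6391. With genes at or above the median signal 7117 genes were called, because fewer were tested. Leaving out 1 replicate leaves a single array in a cell type. The median difference of the 10 was then -0.59 to -0.53 and that of the 60 was -0.17 to -0.07, against -0.17 to -0.14 over all genes. The signs that turned were those of Slc11a2 with median centring (0.055) and of Fth1 minus Ftl1 with quantile normalization (-0.019). The cause was not tested. Replicates A and B share only a letter between cell types (r = -0.04 across genes between their differences). With a replicate block 8 of the 10, 37 of the 60 and 12709 of all genes were called, and no call among the 10 changed. In that fit all 10 genes had the same SE (0.10), so its calls do not rest on the spread of each gene. Dim genes such as Hamp and Epas1 are limited by signal over background.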
